A study of Mus musculus with 136 samples.

Results

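Complement C3 is 1 of 15196 genes measured by RNA sequencing in 136 libraries of mouse macrophages, and its level is described here in all of them. The gene was taken by its symbol in the deposited table, where it carries the transcript identifier NM_009778. In the mm9 build it spans chr17:57343390-57367559, 24170 bases with 41 exons, and no other gene of the table overlaps it. C3 was chosen by its RPKM values across all series, with those in the knockouts already known to differ from the wild type. Its values below are therefore a description and carry no test, apart from a screen for outlying libraries given near the end. Nothing is read from its rank among genes in any series.

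The cells were macrophages that had differentiated from mouse bone marrow over 6 days of culture in 8% M-CSF. Chromatin-associated RNA, which is RNA still bound to chromatin and largely in the course of being transcribed, was measured in 113 libraries. Of these, 100 belong to 4 knockout series in which Nfkb1-/-, Nfkbiz-/-, Bcl3-/- or Nfkbid-/- macrophages and wild-type macrophages of the same series received lipid A for 0, 0.5, 1, 2 or 6 h, with 3 libraries per genotype and time in the Nfkb1 and Nfkbid series and 2 in the other series. The other chromatin libraries come from wild-type cells, 8 pretreated with DMSO or an ERK inhibitor (ERKi) and given lipid A for 0, 15, 30 or 60 min, and 5 given TNFa for 0 to 6 h. Whole-cell RNA was measured in 23 libraries. These are wild-type cells given lipid A or TNFa (9 libraries), cells labelled J2 that were wild type, Nfkb1-/- or Nfkb1-/-, Nfkb2-/- (8 libraries at 0 and 2 h of lipid A), and control cells or cells overexpressing IkBz, unstimulated or given TNFa or lipid A for 2 h (6 libraries). The labels give neither the allele of any knockout nor how the Nfkb2 deletion or the overexpression was made, and they do not say whether replicates came from separate mice.

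C3 is the central protein of the complement system. The classical, lectin and alternative pathways all end in enzymes that cleave it, its larger fragment binds covalently to microbes and marks them for uptake, and its smaller fragment is a signal read by the receptor C3ar1. Most circulating C3 comes from the liver, and macrophages make it locally during inflammation. Lipid A is the part of bacterial lipopolysaccharide that TLR4 recognises, and it switches on NF-kB. Nfkb1 encodes p105, the precursor of the NF-kB subunit p50. Nfkbiz encodes IkBz, Bcl3 encodes Bcl-3 and Nfkbid encodes IkBNS, nuclear proteins of the IkB family that bind p50.

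The promoter is shown because the knockouts remove NF-kB proteins. RefSeq gives the bases from 250 before to 50 after the C3 start site as chr17:57228087-57228386 on the minus strand of GRCm38.p6, a different build from that of the table. Capitals mark the matches to the motifs searched, and the start site follows base 250 of the run.
C3: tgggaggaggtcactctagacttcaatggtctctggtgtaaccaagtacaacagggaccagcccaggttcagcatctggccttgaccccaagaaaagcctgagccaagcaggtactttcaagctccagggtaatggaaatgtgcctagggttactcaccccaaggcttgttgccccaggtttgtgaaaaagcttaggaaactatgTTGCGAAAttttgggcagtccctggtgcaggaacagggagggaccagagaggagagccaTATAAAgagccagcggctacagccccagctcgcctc
The first capitals, TTGCGAAA at positions -45 to -38 from the start, match the C/EBP motif TTGCNNAA, which 10.8% of 32851 promoters of the same length hold on either strand. The second capitals, TATAAA at 15 to 20 bases after the annotated start, match the letters of the TATA box on the gene's strand, which 8.32% hold. Whether this stretch works as a TATA box was not tested. All positions and the window rest on the annotated start, which was not checked. The NF-kB consensus, whose letters are not given here and occur in 4.51% of promoters, had no exact match in this window on either strand. Neither had the AP-1 motif TGANTCA (7.81%) or the GAS motif TTCNNNGAA (8.30%). Sequences close to a motif, and sites outside the window, are not covered by this search. The searched motifs did not overlap each other in the C3 promoter.

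Values are in RPKM, reads per kilobase of gene and per 1000000 reads. Sequencing depth, recovered from the table as described with the processing, was 7.86 to 45.3 in the chromatin libraries, in units of 1000000 reads. C3 was represented by 6 to 132746 reads in them, with a median of 5393. The 6 reads belong to replicate 1 of unstimulated Nfkb1-/- cells, for which the exact 95% Poisson interval of 2.20 to 13.1 reads covers counting error only. In the Nfkb1 series replicate 1 of both genotypes had a depth of 7.86 to 16.2, against 23.4 to 32.7 in replicates 2 and 3. Its RPKM summed over all genes were 28516 to 68328, against 19100 to 35179. In the Nfkbid series, replicate 1 of both genotypes stood apart from all other libraries of the 4 series. Its 10 libraries held 6.92 to 19.4 RPKM of the nuclear RNA Malat1, against 823 to 1640 in replicates 2 and 3, and 460 to 3140 RPKM of macrophage markers (3 of 7 listed genes are in the table), against 9.04 to 84.6. Another nuclear RNA, Rmrp, was at 0.0931 to 0.673 RPKM in these 10 libraries, against 749 to 17332 RPKM in replicates 2 and 3. They are counted here among the chromatin libraries, and whether their RNA fraction differed was not tested. Values with and without replicate 1 of the Nfkbid series are given. The targeted genes could not check the labels: Nfkb1 had a median of 7.92 RPKM in the 15 Nfkb1-/- libraries and 7.77 in the wild type, and Bcl3 had 17.5 RPKM in the 10 Bcl3-/- libraries and 9.07 in the wild type, since these values count reads over the whole gene and the deleted part is not stated. In J2 cells at 2 h Nfkb1 was at 145 RPKM in the wild type, 40.4 in Nfkb1-/- cells and 37.4 and 32.1 in the double knockout. Nfkbiz, Nfkbid and Nfkb2 were not analysed here.

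C3 was close to silent on the chromatin of resting wild-type macrophages and was induced within 0.5 h of lipid A. Over the 9 wild-type libraries per time that leave out replicate 1 of the Nfkbid series, the lowest, median and highest levels were 0.0560, 0.193 and 0.458 RPKM at 0 h. They were 3.06, 6.60 and 17.1 RPKM at 0.5 h. They were 5.09, 15.5 and 24.9 RPKM at 1 h, 19.6, 25.4 and 43.1 RPKM at 2 h, and 8.05, 13.8 and 28.3 RPKM at 6 h. The unstimulated range lay below all others, and the ranges of neighbouring stimulated times overlapped.

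Within a series and replicate number the order of the times was clearer, although whether a number links libraries across times was not checked. This also applies to the ratios and rises between times given below. From 0.5 to 1 h C3 was higher in 10 of 10 wild-type sets of libraries, and from 1 to 2 h again in 10 of 10. From 2 to 6 h it was lower in 9 of 10, the exception being replicate 1 of the Nfkbid series. On the scale of log2(RPKM + 0.5), on which all log2 differences here are given, C3 exceeded its 0 h level by 3.25 ± 0.58, 4.34 ± 0.51, 5.25 ± 0.29 and 4.40 ± 0.55 at 0.5, 1, 2 and 6 h (SD, n = 9). With replicate 1 of the Nfkbid series included, the excess was 2.91 ± 1.20, 4.05 ± 1.03, 5.01 ± 0.79 and 4.38 ± 0.52 (SD, n = 10), and the mean level at 0 h was 0.862 ± 2.02 RPKM against 0.223 ± 0.139 without it.

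**Figure D1:**
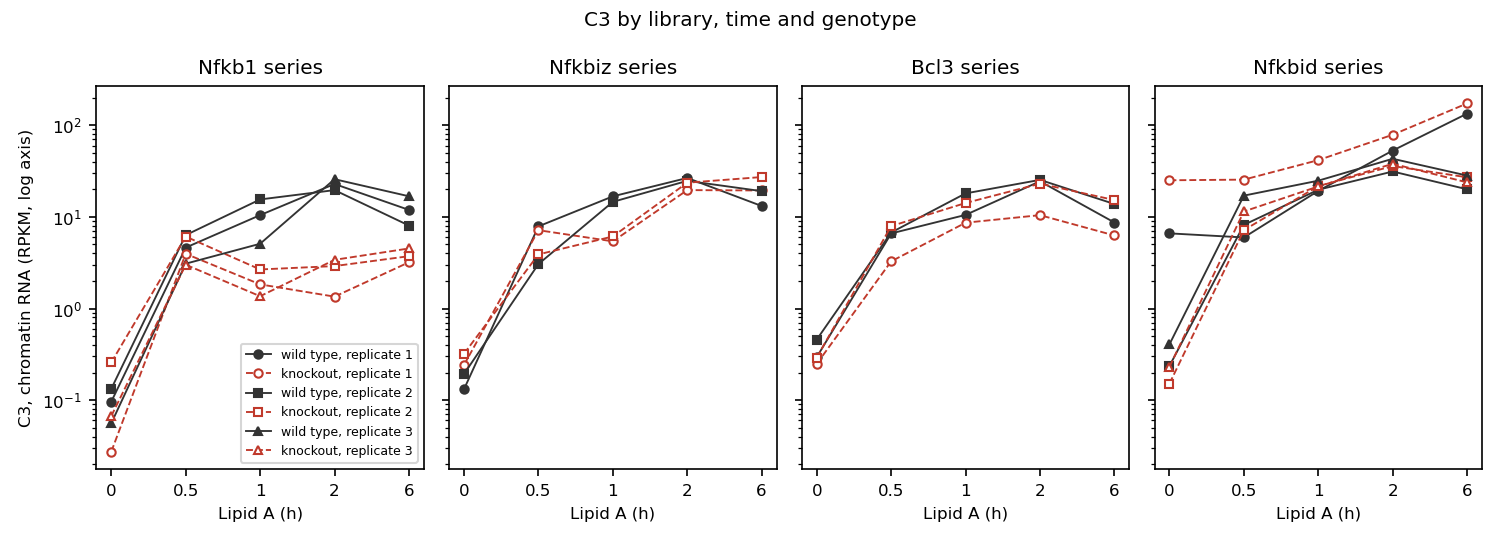
C3 level in chromatin RNA (RPKM, log axis) by time of lipid A in the 4 knockout series, with 1 point per library, filled black for wild type and open red for knockout, and lines joining libraries of one replicate number. The Nfkb1-/- lines meet the wild type at 0.5 h and lie below it from 1 h on, and replicate 1 of the Nfkbid series starts at 6.61 RPKM in the wild type and 25.1 RPKM in the knockout.

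In Nfkb1-/- macrophages C3 was near the wild-type level for the first 0.5 h and stayed far below it afterwards. In bulk RNA, fewer cells making C3 and less C3 RNA per cell cannot be told apart. At 0 h it was at 0.0274, 0.258 and 0.0671 RPKM in Nfkb1-/- replicates 1, 2 and 3, and at 0.0963, 0.133 and 0.0560 RPKM in the wild type. At 0.5 h it was at 3.96, 6.10 and 3.01 RPKM in Nfkb1-/- cells and at 4.62, 6.33 and 3.09 RPKM in the wild type. The genotypes overlapped at both times, and at 0.5 h each Nfkb1-/- library held 85.6% to 97.4% of the wild-type library with its number.

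From 1 h on the genotypes separated. At 1 h C3 was at 1.83, 2.67 and 1.36 RPKM in Nfkb1-/- cells and at 10.5, 15.5 and 5.09 RPKM in the wild type. At 2 h it was at 1.35, 2.91 and 3.40 RPKM against 22.9, 19.6 and 25.8 RPKM. At 6 h it was at 3.20, 3.73 and 4.53 RPKM against 11.9, 8.05 and 16.8 RPKM. All 3 Nfkb1-/- libraries were below all 3 wild-type libraries at each of these times, which held for 3.63%, 5.77% and 4.05% of 4523 genes at 1, 2 and 6 h. Nfkb1-/- libraries held 17.2% to 26.7% of the wild-type level of the same number at 1 h, 5.90% to 14.8% at 2 h and 26.8% to 46.3% at 6 h. The 5.90% is from replicate 1, the shallow replicate of this series, with 256 C3 reads in its Nfkb1-/- library.

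On the log2 scale the matched difference, knockout minus wild type, was 0.04 ± 0.22, -0.09 ± 0.09, -2.05 ± 0.41, -2.99 ± 0.59 and -1.52 ± 0.43 at 0, 0.5, 1, 2 and 6 h (SD, n = 3), while the median of the 4523 genes lay between -0.16 and 0.06. Of these genes, 9 had a lower difference than C3 at 1 h, 0 at 2 h and 11 at 6 h. These are among the values by which C3 was chosen, and nothing is read from their rank.

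The course between times differed as well. At 1 h C3 was at 0.438 to 0.464 of its 0.5 h level in the 3 Nfkb1-/- sets and at 1.65 to 2.45 times that level in the 3 wild-type sets. From 2 to 6 h the direction was opposite again, with ratios of 1.28 to 2.37 in Nfkb1-/- cells and 0.410 to 0.651 in the wild type. C3 was still induced without Nfkb1, by 2.94 ± 0.27, 1.98 ± 0.23, 2.25 ± 0.49 and 2.81 ± 0.33 over its 0 h level at 0.5, 1, 2 and 6 h (log2, SD, n = 3). Summed levels of the neutrophil markers were 0.106 to 0.376 RPKM in Nfkb1-/- and 0.108 to 0.338 RPKM in wild-type libraries, and those of the hepatocyte markers at most 0.141 RPKM, with each gene of both lists that is in the table under 1 RPKM in every library of this series. The macrophage markers summed to 7.26 to 79.7 RPKM in Nfkb1-/- and 6.12 to 62.6 RPKM in wild-type libraries.

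In Nfkbiz-/- macrophages C3 was far below the wild type at 1 h, slightly below it at 2 h and above it at 6 h. At 1 h it was at 5.41 and 6.12 RPKM in Nfkbiz-/- replicates 1 and 2 and at 16.8 and 14.6 RPKM in the wild type, 32.3% and 41.9% of the wild-type libraries with the same numbers. At 2 h it was at 19.6 and 23.6 RPKM against 26.6 and 24.8 RPKM. At 6 h it was at 19.4 and 27.2 RPKM against 13.1 and 19.1 RPKM. Thus both Nfkbiz-/- libraries were below both wild-type libraries at 1 and 2 h, as were 29.2% and 38.0% of 4885 genes, and at 6 h both were above, as were 14.8% of genes.

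At 0 h C3 was at 0.242 and 0.321 RPKM in Nfkbiz-/- cells and at 0.132 and 0.193 RPKM in the wild type, again with no overlap, as for 10.2% of genes. At 0.5 h the genotypes overlapped, at 7.16 and 3.90 RPKM against 7.88 and 3.06 RPKM. The log2 differences were 0.24 ± 0.10, 0.09 ± 0.74, -1.37 ± 0.13, -0.25 ± 0.14 and 0.52 ± 0.35 at 0, 0.5, 1, 2 and 6 h (SD within genotypes, n = 2), beside a median over all genes of -0.24 at 6 h. At 1 h 26 of 4885 genes were lower than C3 and at 6 h 320 were higher. At 2 h C3 was at 3.62 and 3.86 times its 1 h level in the 2 Nfkbiz-/- sets and at 1.59 and 1.70 times in the wild type.

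In Bcl3-/- macrophages the mean C3 level was below the wild type at each time, at 0.5, 1 and 6 h by less than the SD within genotypes. At 2 h C3 was at 10.5 and 23.0 RPKM in Bcl3-/- and at 24.5 and 25.4 RPKM in wild-type libraries. The log2 differences were -0.18 ± 0.14, -0.35 ± 0.58, -0.30 ± 0.51, -0.66 ± 0.55 and -0.15 ± 0.69 at 0, 0.5, 1, 2 and 6 h (SD within genotypes, n = 2). Leaving out 1 library turned the sign at 0.5, 1 and 6 h without Bcl3-/- replicate 1 (0.23, 0.04 and 0.46) and at 1 and 6 h without wild-type replicate 2 (0.07 and 0.17), and put the 2 h difference at -0.11 without Bcl3-/- replicate 1. The genotypes did not overlap at 0 and 2 h, with both Bcl3-/- libraries lower, as for 8.16% and 10.4% of 4740 genes, and overlapped at 0.5, 1 and 6 h.

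In the Nfkbid series the genotypes overlapped at every time. At 2 h C3 was at 78.9, 35.9 and 38.0 RPKM in Nfkbid-/- replicates 1, 2 and 3 and at 53.0, 31.3 and 43.1 RPKM in the wild type. With all replicates the log2 differences were 0.45 ± 1.21, 0.42 ± 1.38, 0.34 ± 0.67, 0.20 ± 0.37 and 0.18 ± 0.37 (SD, n = 3). Without replicate 1 they were -0.24, -0.37, -0.04, 0.01 and 0.09 at 0, 0.5, 1, 2 and 6 h (n = 2). The sign of the mean difference at 0, 0.5 and 1 h thus rested on replicate 1, in which C3 was at 25.1 RPKM in unstimulated Nfkbid-/- and 6.61 RPKM in unstimulated wild-type cells. Neutrophil markers summed to 19.3 to 65.3 RPKM in the 10 libraries of replicate 1 and to 0.158 to 0.817 RPKM in replicates 2 and 3. Nuclear RNAs and macrophage markers also set replicate 1 apart, as given above. What part the RNA fraction or the cells had in these C3 values was not tested.

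**Figure D2:**
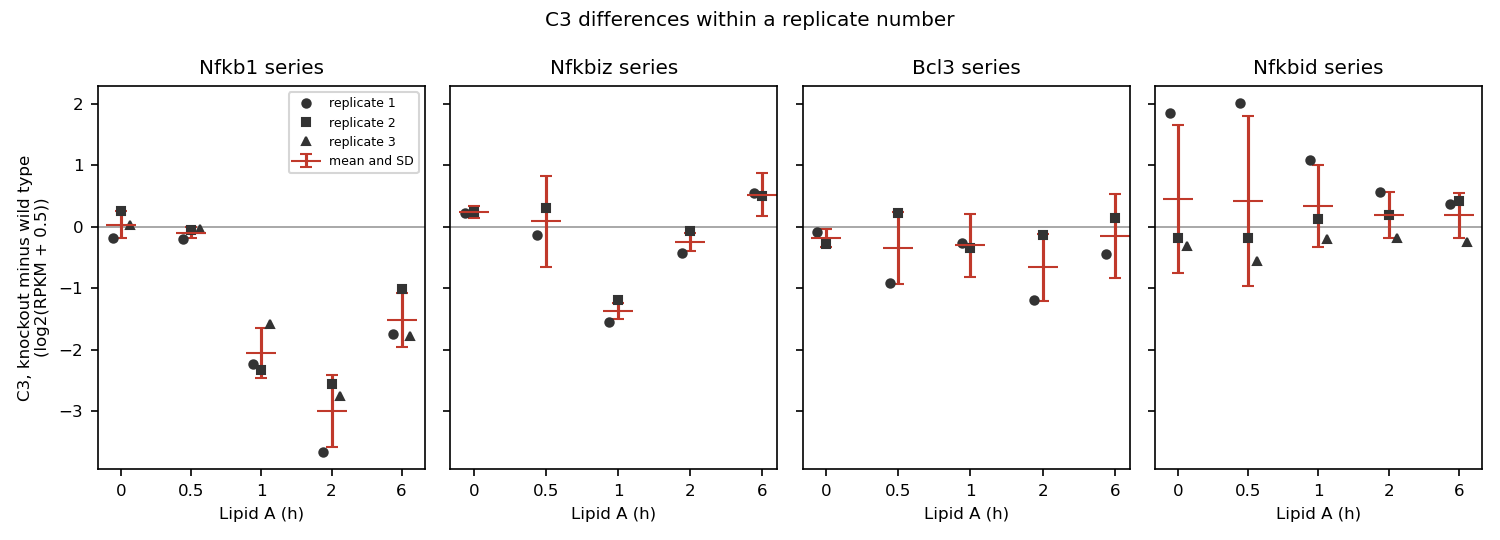
Difference in C3 between knockout and wild type (log2(RPKM + 0.5)) by time of lipid A, with 1 black point per replicate number and the mean in red with the SD of these differences (Nfkb1 and Nfkbid series) or the SD within genotypes (Nfkbiz and Bcl3 series). All 3 points of the Nfkb1 series lie below -1 at 1, 2 and 6 h, both points of the Nfkbiz series lie below -1 only at 1 h, and replicate 1 of the Nfkbid series lies above the other replicates at 0, 0.5, 1 and 2 h.

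The J2 cells repeat the comparison in whole-cell RNA and add loss of Nfkb2, which encodes p100, the precursor of p52. Wild-type J2 cells had C3 at 2.62 RPKM at 0 h and 59.2 RPKM at 2 h, with 1 library each. Nfkb1-/- J2 cells had 0.695 and 6.54 RPKM, with 1 library each. The double knockout had 4.75 and 0.744 RPKM at 0 h and 11.5 and 7.25 RPKM at 2 h in replicates 1 and 2.

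At 2 h all 3 libraries lacking Nfkb1 were below the wild-type library, by a log2 difference of -3.08 in Nfkb1-/- cells and -2.63 for the mean of the double knockout. At least 2-fold lower levels were seen for 1.84% and 4.11% of 6620 genes in these comparisons, and 5 and 37 genes had a lower difference than C3. Both comparisons use the same wild-type library. The double knockout was not lower than the single knockout, with a difference of 0.45 (log2) between its mean and the 1 library of Nfkb1-/- cells, whose 6.54 RPKM lay just under the double-knockout replicates. With 1 library for the wild type and for Nfkb1-/- there is no replicate check of any of these differences.

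The difference between 2 and 0 h in J2 cells was 4.25 (log2) in the wild type, 2.56 in Nfkb1-/- cells and 1.91 in the double knockout. The unstimulated double-knockout replicates lay on either side of the wild type, at 4.75 and 0.744 RPKM, so the last value depends on which of them is used.

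TNFa, a cytokine that also activates NF-kB, gave lower C3 levels than lipid A in most comparisons. On chromatin C3 was at 0.0848, 2.31, 1.66, 3.29 and 6.81 RPKM at 0, 0.5, 1, 2 and 6 h of TNFa, with 1 library per time. At 0.5, 1, 2 and 6 h each value lay under the lowest of the wild-type lipid A libraries of the knockout series, which belong to other experiments. The DMSO library at 30 min of lipid A was lower than TNFa at 0.5 h, at 1.08 RPKM. The 6 h level was 3.64 above 0 h (log2), and 0.0911% of 4391 genes had a larger difference, while 5.51% were at least 2-fold higher.

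In whole-cell RNA, which accumulates and is scaled differently, C3 was at 12.4 RPKM unstimulated. It then reached 14.6, 26.0, 51.0 and 307 RPKM at 0.5, 1, 2 and 6 h of lipid A and 13.3, 21.1, 23.5 and 182 RPKM at the same times of TNFa. The lipid A library was the higher at each time, by 0.12, 0.30, 1.10 and 0.75 (log2) for 0.5, 1, 2 and 6 h. Both whole-cell series continued to climb from 2 to 6 h. On chromatin the level under lipid A was lower at 6 h than at 2 h in 9 of 10 wild-type sets. Under TNFa the chromatin level was higher at 6 h, at 6.81 RPKM against 3.29 RPKM at 2 h, with 1 library each.

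Cells overexpressing IkBz had more C3 than control cells before stimulation and not after it. C3 was at 9.76 RPKM against 1.71 RPKM in the control at 0 h, at 29.7 against 42.4 RPKM after 2 h of TNFa, and at 90.2 against 113 RPKM after 2 h of lipid A, with 1 library each. The log2 differences were 2.22, -0.51 and -0.33. At 0 h 30 of 6510 genes, 0.461%, had a higher difference than C3, and 2.57% were at least 2-fold higher.

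ERK is a kinase activated downstream of TLR4. Pretreatment with its inhibitor went with more C3 on chromatin at the early times. With DMSO C3 was at 0.191, 0.184, 1.08 and 9.75 RPKM at 0, 15, 30 and 60 min of lipid A. With ERKi it was at 0.254, 0.570, 4.82 and 22.5 RPKM. The ERKi library was the higher at each time, by 0.13, 0.64, 1.75 and 1.17 (log2).

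At 30 min 1 of 3409 genes had a higher difference than C3, and 0.968% were at least 2-fold higher. At 60 min 56 genes, 1.64%, had a higher difference, and 2.93% were at least 2-fold higher. The design uses ERKi to ask about genes that depend on p50 at 0.5 h, a time at which C3 in Nfkb1-/- cells overlapped the wild type. There was 1 library per condition. Because C3 was chosen by values that include the J2, TNFa, overexpression and ERKi libraries, nothing is read from its ranks there.

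**Figure D3:**
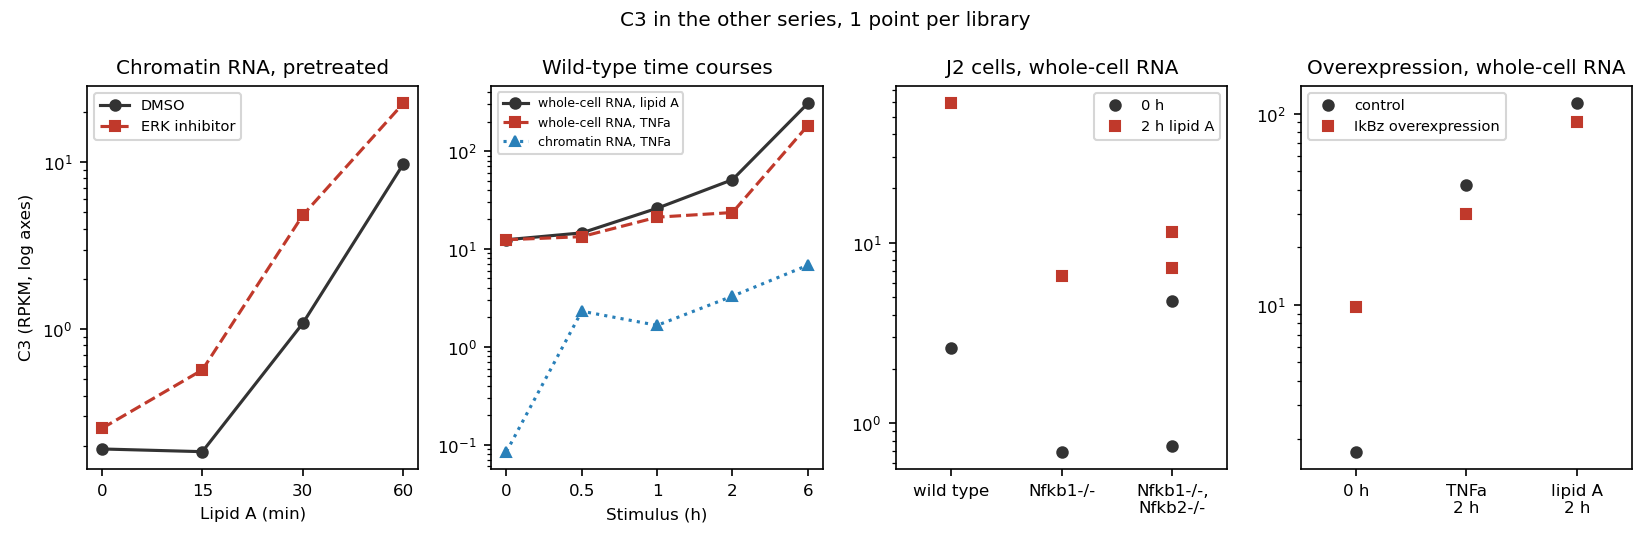
C3 level (RPKM, log axes that differ between panels) in the series other than the 4 knockout series, with 1 point per library. From left to right, the ERKi points lie above DMSO at each time, the lipid A curve in whole-cell RNA ends at 307 RPKM and the TNFa curve at 182 RPKM, the 3 J2 libraries lacking Nfkb1 lie at 6.54 to 11.5 RPKM at 2 h against 59.2 RPKM in the wild type, and IkBz overexpression lies above the control at 0 h alone.

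The other genes of the complement system were mostly too low to test. Of 57 listed complement genes, 35 are in the table, and only 7 reached an RPKM of 1 in enough chromatin libraries of the Nfkb1 series to be tested, 9 in the Nfkbiz, 8 in the Bcl3 and 10 in the Nfkbid series. To pass, a gene needed a limma p under 0.05 after adjustment over all genes and at least a 2-fold change. In Nfkb1-/- cells 0 of 7 passed at any stimulated time in either direction, beside 0.906% of all genes lower and 0.133% higher. This fit leaves out the replicate number, although it was taken to pair the Nfkb1 libraries. With that number as a term 2 of 7 were lower, beside 2.03% of all genes. Without the term, at an unadjusted p and the same 2-fold minimum, 1 of the 7 was lower at 2 h and 1 at 6 h, beside 1.26% and 0.796% of all genes. Their median difference at 2 h was -0.84 (log2), with 5 of 7 below 0, against -0.09 over all 4523 genes.

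C1qa, C1qb and C1qc encode the recognition molecule of the classical pathway, and Cfp encodes properdin, which stabilises the alternative pathway's C3-cleaving enzyme. At 2 h in Nfkb1-/- against wild-type cells the log2 differences were -1.02 ± 0.32 for C1qa, -1.03 ± 0.76 for C1qb, -0.84 ± 0.40 for C1qc and -1.17 ± 0.63 for Cfp (SE, n = 3). None passed (limma adjusted p = 0.37 for C1qa and 1.00 for each of the others). With the replicate number as a term, C1qa passed at 2 h (limma adjusted p = 0.027) and Cfp at 2 h (0.010) and 6 h (1.6e-04, at -1.72 ± 0.25), 2 of 7 genes beside 2.03% of all genes. C1qa was low throughout, at 0.351 ± 0.150 RPKM in Nfkb1-/- and 1.22 ± 0.24 RPKM in wild-type cells at 2 h (SD, n = 3).

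Cfb encodes factor B, the protease that joins C3's larger fragment to form the alternative pathway's C3-cleaving enzyme, and it was induced later than C3. In the wild-type cells of the Nfkb1 series Cfb was at 0.0694 ± 0.0259, 0.106 ± 0.061, 4.82 ± 1.94 and 29.5 ± 11.3 RPKM at 0, 1, 2 and 6 h (SD, n = 3). Over the wild-type libraries of the 4 series it rose by 2.73 ± 0.25 at 2 h (log2, SE; limma adjusted p = 7.7e-13) and 5.23 ± 0.25 at 6 h (3.4e-22). It was the only one of the 7 tested complement genes to rise, beside 16.7% of all genes. A gene as low at rest as Cfb could enter this test only through the times at which it was higher. The filter thus had a part in this rise and in the count. Cd93, a surface receptor first described as a C1q receptor, fell by 2.12 at 6 h (limma adjusted p = 1.0e-04), and Cfp fell by 1.29 at 1 h (0.029), 2 of 7 beside 34.8% of all genes. When each library was centred on its median gene the counts were 1 lower and 2 higher, with Cfp no longer lower and C1qb higher at 2 h. All genes together had a median of -0.40 at 2 h and -0.33 at 6 h.

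C3 and Cfb were low in different knockouts at 6 h. In Nfkb1-/- cells Cfb was at 27.2 ± 9.3 RPKM at 6 h against 29.5 ± 11.3 RPKM in the wild type (SD, n = 3), a difference of -0.10 ± 0.39 (SE; limma adjusted p = 1.00). With the replicate number as a term Cfb did not pass in Nfkb1-/- cells either. In Nfkbiz-/- cells Cfb was at 10.5 and 15.3 RPKM at 6 h against 29.3 and 43.8 RPKM in the wild type, a difference of -1.47 ± 0.22 (log2, SE; limma adjusted p = 6.0e-04), the time at which C3 was above the wild type in both Nfkbiz-/- libraries. Cfb was the 1 of 9 tested complement genes that passed in Nfkbiz-/- cells, beside 4.26% of all genes lower and 2.01% higher. The difference between C3 and Cfb was not tested.

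In the Bcl3 and Nfkbid series 0 of 8 and 0 of 10 complement genes passed in limma, and 0 at an unadjusted p under 0.05 with a 2-fold difference, beside 0% of all genes in each. The Nfkbid fit had a median residual SD of 0.74 (log2), against 0.19 to 0.41 in the other series. With an SE of 2.06 for C1qa, for example, a 2-fold change could hardly have passed there. Without replicate 1 of both genotypes the Nfkbid count was also 0. The receptor gene C3ar1 was at 9.37 ± 3.50 RPKM in resting wild-type and 7.76 ± 5.48 RPKM in resting Nfkb1-/- cells, and did not pass in the Nfkb1 or Nfkbiz series at any time. Of the relatives of C3 (C4a, C4b, Hc, A2m, Cd109, Pzp and Mug1) all 7 are in the table and 0 reached the level needed for a test.

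**Figure D4:**
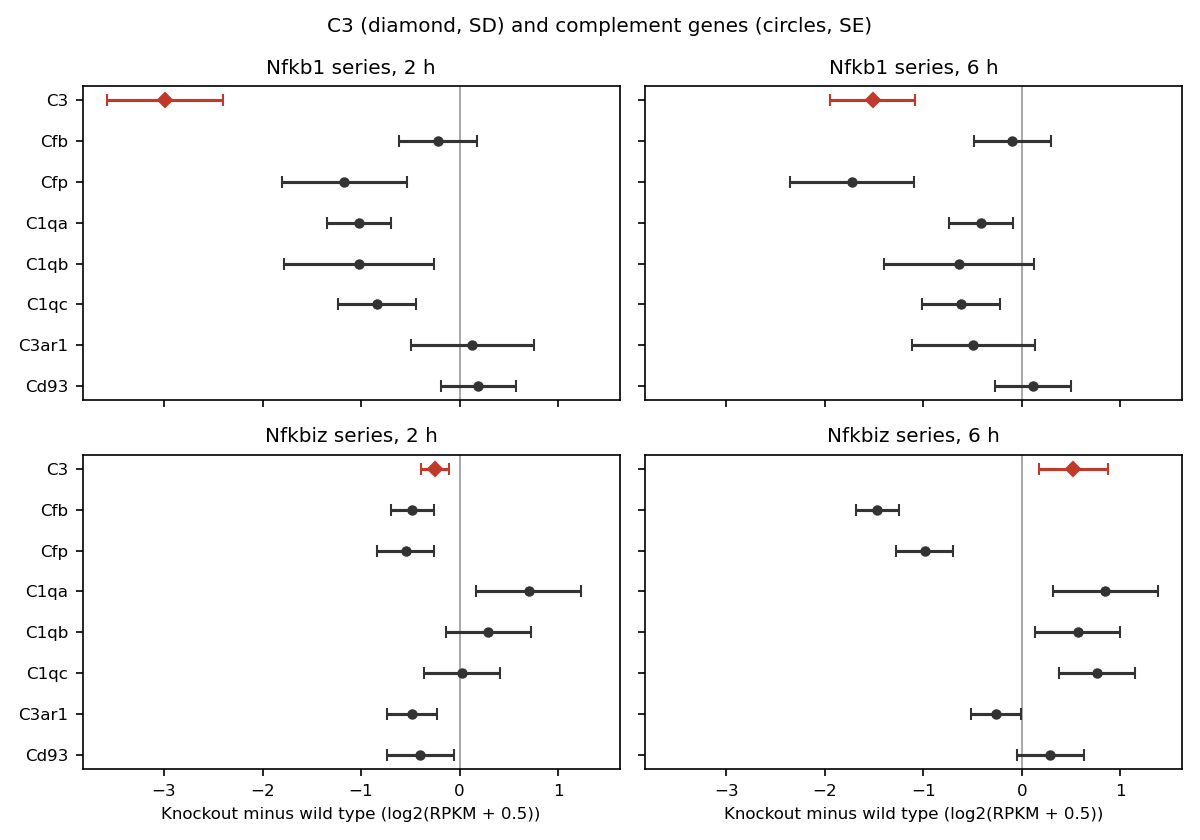
Difference between knockout and wild type (log2(RPKM + 0.5)) at 2 and 6 h for C3 (red diamond, mean with the SD of matched differences in the Nfkb1 and the SD within genotypes in the Nfkbiz series) and 7 complement genes (black circles, fitted difference with its SE) in the Nfkb1 and Nfkbiz series. In the Nfkb1 series at 2 h C3 lies at -2.99 and Cfb at -0.22, and in the Nfkbiz series at 6 h C3 lies at 0.52 and Cfb at -1.47.

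Acute-phase genes were tested beside C3, since C3 is itself an acute-phase protein. Lcn2 encodes lipocalin-2, which starves bacteria of iron, and Saa3 encodes a serum amyloid A protein made by macrophages. In Nfkb1-/- cells 1 of 2 tested acute-phase genes was lower, Lcn2 at -3.78 ± 0.23 at 6 h (log2 difference, SE; limma adjusted p = 3.0e-11), beside the 0.906% of all genes that were lower at any stimulated time. In Nfkbiz-/- cells 2 of 3 were lower at 6 h, Lcn2 at -4.68 ± 0.12 (limma adjusted p = 1.5e-11) and Saa3 at -5.77 ± 0.25 (limma adjusted p = 8.5e-09), beside 4.26% of all genes lower at any stimulated time. Unlike C3, these genes had their largest differences at 6 h. Of 15 listed acute-phase genes 7 are in the table, and 2 reached the level needed for a test in the Nfkb1 and 3 in the Nfkbiz series. A gene low at rest could enter these tests only through libraries in which it was higher. The filter may thus have had a part in these counts.

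Of the NF-kB and C/EBP factors listed, 5 are in the table and were tested. All 5 (Nfkb1, Rel, Rela, Bcl3 and Cebpd) were higher in stimulated wild-type cells, beside 16.7% of all genes. Cebpd, which encodes C/EBP-delta, was lower in Nfkbiz-/- cells, 1 of 5 factors beside 4.26% of all genes, with log2 differences of -1.46, -1.70 and -2.40 at 1, 2 and 6 h, though its span overlaps that of Spidr. With the replicate number as a term Rel passed there too, at -1.01 ± 0.23 at 1 h (SE; limma adjusted p = 0.037), beside 5.04% of all genes. In Nfkb1-/- cells 0 of 5 passed in limma, beside 0.906% of all genes, and with the replicate number as a term Bcl3 was lower at 1 h, at -1.35 ± 0.30 (SE; limma adjusted p = 0.0095), beside 2.03%.

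The genes whose levels most resembled C3 were named by Pearson's r over the 40 means of genotype, series and time, which share libraries and depth with C3. Among 4076 genes the 10 highest included Car13 (0.94), Cxcl10, Ebi3, Nupr1, Socs3, Gbp5 and Ikbke (each 0.93), and Acod1 and Ccl5 (each 0.92), with the 11th at 0.916 and the median of all genes at -0.40. Cxcl10 and Ccl5 encode chemokines, Ebi3 a subunit of the cytokines IL-27 and IL-35, Socs3 a feedback inhibitor of cytokine signalling, Gbp5 a guanylate-binding protein of cell-autonomous defence, and Acod1 the enzyme that makes itaconate. By Spearman's rank only 1 of these 10 stayed among the first 10.

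RefSeq promoters were matched for 7 of the 10, and 3 of these held an exact match to the NF-kB consensus. Of all promoters 4.51% hold such a match, and none was found in the C3 window. The GAS motif, also not matched in C3, was in 3 of the 7 (Nupr1, Socs3 and Gbp5), beside 8.30% of all promoters, and AP-1 in 2 (Cxcl10 and Ikbke), beside 7.81%. The NF-kB stretches are shown on GRCm38.p6, with the match in capitals.
Cxcl10 (chr5:92349029-92349058, minus strand): agaggggagaGGGAAATTCCaagttcatgg
Cxcl10 (chr5:92348973-92349002, minus strand): cggtttacagGGGACTTCCCtcgggttgcg
Ebi3 (chr17:55952569-55952598, plus strand): gccccttcctGGGGCTTCCCcgttggccat
Gbp5 (chr3:142496847-142496876, plus strand): ggagaggaaaGGAAATTCCCagggctggcc
Counted from each gene's start site, the matches begin at -159 and -103 in Cxcl10, at -44 in Ebi3 and at -77 in Gbp5, where it lies in the reverse orientation. The C/EBP motif seen in C3 was in 0 of the 7.

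None of the genes named passed in Nfkb1-/- cells at 1, 2 or 6 h, beside 0.906% of all genes lower. Ebi3, with the largest difference at 2 h among them, was at -1.90 (log2; limma adjusted p = 0.35). With the replicate number as a term it passed at 1 h (-1.65, limma adjusted p = 0.0091) and 2 h (0.0029). Ebi3 did pass in Nfkbiz-/- cells, at -1.52 at 2 h (limma adjusted p = 0.024) and -1.11 at 6 h (0.034), and Acod1 passed at 6 h. Judged instead by the 16 knockout differences after stimulation, the 5 genes most like C3 were Mob3c (0.92), Nupr1 (0.89), Jdp2 (0.84), Mllt6 (0.84) and Il27 (0.83), a likeness that uses the Nfkb1 differences themselves. None of them passed in Nfkb1-/- cells without that term. With it Mob3c passed at 2 h (-1.20, limma adjusted p = 1.6e-04). Jdp2, which encodes a repressor of AP-1, passed at 1 h (-1.57, limma adjusted p = 0.0059) and 2 h (-1.60, 0.0062). Together with Ebi3, 3 of these 14 genes passed with the term, beside 2.03% of all genes. Mob3c and Jdp2 were picked by differences that include those in Nfkb1-/- cells, so nothing is read from this count.

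The genes beside C3 on chromosome 17 include 3 ligands of the TNF superfamily. Tnfsf14, 9.79 kb away, Cd70, 54.2 kb away, Tnfsf9, 96.2 kb away, and the predicted gene Gm11110, 98.0 kb away, are the others in the table within 100 kb. Tnfsf9 was at 14.2 ± 3.2 RPKM in the wild type and 6.42 ± 2.27 RPKM in Nfkb1-/- cells at 2 h (SD, n = 3), a difference of -1.13 ± 0.46 (log2, SE; limma adjusted p = 1.00). This comes from the fit without the replicate number, which does not use the pairing of the libraries. At 0.5 h Tnfsf9 was at 112 ± 7 RPKM in the wild type and 116 ± 20 RPKM in Nfkb1-/- cells. Its span overlaps that of Gm11110, so reads over the shared part could belong to either. Tnfsf14 and Cd70 did not reach the level needed for a test, with at most 1.27 and 0.124 RPKM in any library of the Nfkb1 series.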

How the data were processed

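The authors deposited 1 table of RPKM values for 15196 genes and 136 libraries, which also gives each gene's position in mm9. HISAT2, SAMtools and mm9 are named without versions, per the submitters' processing notes, and the rule for counting reads is not given in the sources used here. Low values in the chromatin libraries were whole multiples of 1 read over the whole gene span, introns included: of the values worth at most 30 reads, 97.4% to 100% came within 0.02 of a whole read count. This gave depth and reads for C3. In the J2 and overexpression libraries 2790 single-exon genes gave a depth of 15.0 to 63.1 (in units of 1000000 reads), and depth was not recovered for the other whole-cell libraries. Levels in chromatin and whole-cell RNA are therefore not compared. The 23 whole-cell libraries were so taken from their labels and the design, although the extraction text describes chromatin RNA for them too.

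Values were analysed as log2(RPKM + 0.5). C3 was described by library, by the mean difference and by the SD of differences within replicate numbers or, where the numbers were not taken to pair libraries, the pooled SD within genotypes. Other genes were tested with limma 3.58.1 in R 4.3.3, 1 fit per knockout series with 1 mean per genotype and time and a trend, on genes that reached 1 RPKM in at least 3 libraries (2 where groups have 2), and p-values were adjusted after Benjamini and Hochberg over all genes at each time. Wild-type rises came from 1 fit of the 50 wild-type libraries with the series as a term, on genes that reached 1 RPKM in at least 10 of them. The main fits have no term for the replicate number, so they do not use the pairing taken below for the Nfkb1 and Nfkbid series. Their p-values measure the spread between libraries, which may be technical. The script was tested on simulated data. Series with 1 library per condition were described with no test.

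C3, the gene lists and the rules were chosen with earlier results of these data known. Named genes are the listed genes that passed, those of C3's own pathway, the 10 genes with the highest Pearson's r with C3 over group means and the 5 over knockout differences, and all genes within 100 kb. Of the 10, 1 is not reported here. Deviations from the group means correlated between genotypes for every shared number, at 0.61 to 0.92 for Nfkb1 and 0.89 to 0.97 for Nfkbid, so the numbers were taken to pair those libraries. With 2 pairs each, the numbers in the Nfkbiz and Bcl3 series were not. Alternatives were pseudocounts of 0.1 and 1, filters of 3 RPKM and none, centring on the median gene, the replicate block, leaving out each replicate and Spearman's rank. The alternative without replicate 1 of both genotypes in the Nfkbid series (for its complement genes) and the replicate block for the genes most like C3 were added after seeing the data.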

Additional observations from a re-analysis of the deposited data

Results flagged for a closer look

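Among the wild-type chromatin libraries, 5 groups of 10 (1 per time) were searched for a library far from the others, of which chance marks about 1 in 20. C3 stood apart at 6.61 RPKM at 0 h and at 134 RPKM at 6 h in replicate 1 of the Nfkbid series, and at 17.1 RPKM at 0.5 h in its replicate 3. Dixon's rule was used only to mark libraries, on values by which C3 was chosen, and nothing is read from the marks. Replicate 1 already differed in nuclear RNAs and markers, as given above.

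The C3 differences between knockout and wild type had opposite signs for 2 sets of knockouts, whichever libraries of a series are set against each other. At 0 h both Nfkbiz-/- libraries were higher (0.24), as for 10.2% of genes. Both Bcl3-/- libraries were lower (-0.18), as for 8.16% of genes, a gap of 0.42 (log2). All C3 levels in this comparison lay under the 0.5 added to each RPKM. With a pseudocount of 0.1 the differences became 0.54 and -0.35. At 6 h all 3 Nfkb1-/- libraries were lower (-1.52), as for 4.05% of genes. Both Nfkbiz-/- libraries were higher (0.52), as for 14.8% of genes, a gap of -2.04. Neither gap was tested, because C3 was chosen with its values known.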

How the results depend on the processing

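Across the alternatives, 273 of 286 recomputed values stayed within the spread between replicates or, for counts, within 1.5 times. Where that spread is wide this includes changes of sign. Leaving out 1 library cannot move a C3 knockout difference by more than the spread within genotypes. Those values could thus only be counted as staying, and many counts of 0 stayed at 0. The 273 are therefore no measure of robustness. With a pseudocount of 0.1, the C3 rise in the wild type was 5.15 at 1 h, 6.13 at 2 h and 5.48 at 6 h, the Nfkbiz difference at 0 h was 0.54 and the Bcl3 difference at 0 h was -0.35. With a pseudocount of 1 the rise at 6 h was 3.72. Centring on the median gene put the Nfkbiz difference at 0 h at 0.34 and the wild-type complement counts at 1 lower and 2 higher. With the replicate block, 2 complement genes were lower in the Nfkb1 series instead of 0, and the block changed no other complement count. In the Nfkbiz series 2 were lower with a pseudocount of 0.1, and between 1 and 2 when each replicate was left out, with Cfp added at 2 without Nfkbiz knockout replicate 2. By Spearman's rank 1 of the 10 genes most like C3 remained. Leaving out each replicate, the Nfkb1 differences in C3 ran from -0.12 to 0.14, -0.34 to 0.13, -2.47 to -1.71, -3.20 to -2.67 and -1.78 to -1.27 at 0, 0.5, 1, 2 and 6 h. The Nfkbiz differences ran from 0.17 to 0.31, -0.53 to 0.71, -1.46 to -1.27, -0.38 to -0.12 and 0.26 to 0.78. The Bcl3 differences ran from -0.32 to -0.05, -0.93 to 0.23, -0.68 to 0.07, -1.21 to -0.11 and -0.76 to 0.46. The Nfkbid differences ran from -1.28 to 1.49, -0.06 to 0.83, 0.03 to 0.50, -0.17 to 0.40 and -0.73 to 1.01. The causes of these shifts were not tested.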
